A study of Mus musculus with 64 samples.

Results

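Histamine signalling was followed through 5 genes, 3 receptors (Hrh1, Hrh2 and Hrh3) and 2 enzymes (Hdc and Hnmt), among the 55401 genes counted in the hypothalamus and PFC of mice given psilocybin or vehicle. The 5 genes were found in the counts table by gene identifier, and they are of interest here because Hrh1 was high in the PFC of vehicle mice at 3 h. The set was thus chosen by the Hrh1 counts of these libraries, so Hrh1 in comparisons that hold this group is described without a test. The animals were C57BL/6J males aged 10 weeks, housed in groups on chow. Psilocybin (the precursor of the serotonin receptor agonist psilocin) was given intraperitoneally on 1 occasion at 3 mg/kg, isotonic saline served as vehicle, and brains were taken after 3 h or 4 weeks. Each of the 32 mice gave a whole hypothalamus and a PFC (labelled frontal cortex), which makes 64 libraries in 8 groups of 8, each library of a group from a separate mouse. The mice harvested at 4 weeks were also older at harvest, so time after the injection cannot be told apart from age.

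Brain histamine is made from histidine by histidine decarboxylase, the product of Hdc, in neurons of the tuberomammillary nucleus in the posterior hypothalamus, whose axons reach most of the forebrain, and mast cells make it as well. H1 receptors (Hrh1) couple to Gq and phospholipase C, H2 receptors (Hrh2) couple to Gs and cyclic AMP, and H3 receptors (Hrh3) couple to Gi/o and restrain the release of histamine and other transmitters. Histamine N-methyltransferase (Hnmt) inactivates the released amine inside cells, and the system is known for its part in wakefulness and feeding.

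The upstream sequences of the 3 genes whose RNA differed between the regions are shown to place them in the genome. Each is the 250 bases ahead of a RefSeq transcript start on GRCm38.p6, written in the direction of transcription, with capitals for the letters GGGCGG (a GC box, searched on both strands). Hrh1 lies on chromosome 6 from 114397936 to 114482404 on the plus strand, Hrh2 on chromosome 13 from 54192129 to 54236180 on the plus strand, and Hdc on chromosome 2 from 126593667 to 126619299 on the minus strand. The windows are chr6:114397686-114397935 (plus strand), chr13:54191879-54192128 (plus strand) and chr2:126618679-126618928 (minus strand).
Hrh1: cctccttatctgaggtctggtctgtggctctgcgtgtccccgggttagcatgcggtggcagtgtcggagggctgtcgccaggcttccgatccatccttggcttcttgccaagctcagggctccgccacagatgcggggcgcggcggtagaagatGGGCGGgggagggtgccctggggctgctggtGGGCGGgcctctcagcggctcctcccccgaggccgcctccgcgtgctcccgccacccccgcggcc
Hrh2: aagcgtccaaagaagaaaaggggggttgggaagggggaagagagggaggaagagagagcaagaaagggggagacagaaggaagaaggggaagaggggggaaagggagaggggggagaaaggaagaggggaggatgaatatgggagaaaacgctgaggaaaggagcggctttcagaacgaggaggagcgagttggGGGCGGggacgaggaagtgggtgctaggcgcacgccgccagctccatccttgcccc
Hdc: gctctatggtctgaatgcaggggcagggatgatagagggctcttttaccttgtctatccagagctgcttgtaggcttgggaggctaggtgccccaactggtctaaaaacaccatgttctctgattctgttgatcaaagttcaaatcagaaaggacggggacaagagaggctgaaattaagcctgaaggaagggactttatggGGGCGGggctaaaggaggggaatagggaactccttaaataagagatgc
GC content was 71.2% with 21 CpG in the Hrh1 window, 59.6% with 10 CpG in the Hrh2 window and 48.8% with 2 CpG in the Hdc window, against medians of 52.4% and 6 over all 32851 windows. RefSeq gives 4 windows for Hrh1 and 2 for Hrh2, and for these genes the window shown is the one that ends where the gene begins in the annotation of the counts. The Hdc window lies inside the bounds given above for Hdc, ahead of one annotated first exon and in an intron of a transcript that begins further upstream. The shown Hrh1 window held 2 GC boxes and the others 1 each, and 32.7% of all windows held at least 1. The 3 Hrh1 windows not shown held 4, 0 and 0 GC boxes at 78.4%, 49.6% and 51.2% GC, and the other Hrh2 window held 1 at 60% GC. None of the 3 windows held TATAAA (12.4% of all windows), TGACGTCA (1.55%) or CACGTG (6.02%). All 5 genes matched a RefSeq entry. The 2 genes without a called difference are Hrh3, on chromosome 2 from 180099465 to 180104174 (minus strand), and Hnmt, on chromosome 2 from 24002910 to 24049394 (minus strand). Antisense genes overlap Hrh2 (Gm16578) and Hrh3 (Gm17180), with mean levels of 0.0578 and 0.371 CPM (counts in each 1000000 library counts).

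The 62 libraries analysed held between 8061033 and 70361839 counted reads, and the 2 others had 211111 (hypothalamus, vehicle, 3 h) and 200066 (PFC, psilocybin, 4 weeks) and were left out. The regions matched their labels. Summed hypothalamic neuropeptide and patterning genes lay between 415 and 2882 CPM in the hypothalamus and between 67.9 and 158 in the PFC, and the cortical excitatory genes lay between 143 and 290 in the hypothalamus and between 1568 and 2194 in the PFC. The highest hypothalamic sum, 2882, came from psilocybin replicate 5 at 4 weeks, which stood apart from its group. The log2 differences of the 5 genes in comparisons that hold it are given with and without it. RNA was extracted in 4 pools, A and B for the hypothalamus and C and D for the PFC, so region and pool cannot be told apart. Pools A and C held cages 1 to 4 and pools B and D cages 5 to 8. Differences between the pools of a region thus cannot be told apart from differences between these cages.

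All 5 genes passed the filter on low counts. Per gene length, Hrh3, the inhibitory receptor, had the highest mean level in each region, 19.6 ± 3.82 FPKM (SD, n = 31) in the hypothalamus and 18 ± 3.92 (n = 31) in the PFC. Hnmt followed with 13.1 ± 1.18 FPKM in the hypothalamus and 13.5 ± 2.46 in the PFC. The other receptors were lower on the same scale, Hrh1 with 5.70 ± 0.590 and 5.08 ± 1.23 FPKM and Hrh2 with 1.77 ± 0.231 and 2.84 ± 0.414. Hdc was the gene with the widest range, 7.69 ± 2.32 FPKM in the hypothalamus and 0.159 ± 0.101 in the PFC. The order in the hypothalamus was therefore Hrh3, Hnmt, Hdc, Hrh1 and Hrh2 by mean, and neighbours overlapped in single libraries down to Hrh1, with Hrh3 at 11.4 to 33.4, Hnmt at 9.83 to 15.2, Hdc at 4.28 to 12.9 and Hrh1 at 4.67 to 7.18 FPKM, while Hrh2 (1.19 to 2.27 FPKM) lay below them all.

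**Figure D1:**
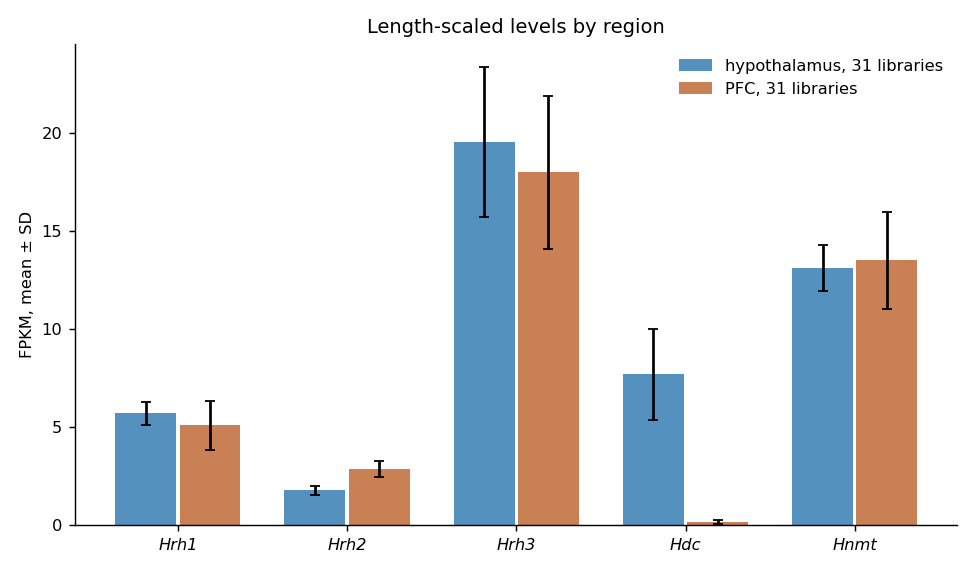
Mean level of each gene in FPKM (CPM divided by gene length in kilobases) in 31 hypothalamic and 31 PFC libraries, with SD as bars. Hrh3 is highest in both regions, and Hdc falls from 7.69 in the hypothalamus to 0.159 in the PFC.

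The first comparison asked where the 5 genes are expressed, by setting the PFC against the hypothalamus at the same treatment and time. Hdc RNA was nearly confined to the hypothalamus, Hrh2 was higher in the PFC, and Hrh1 was lower in the PFC outside the vehicle group at 3 h. Hrh3 and Hnmt were not called. Tests were quasi-likelihood tests in edgeR, and a gene was called at a p under 0.05 after Benjamini-Hochberg adjustment over 18971 genes. It called 2 of the 4 genes tested in vehicle mice at 3 h, and 3 of 5 in psilocybin mice at 3 h, in vehicle mice at 4 weeks and in psilocybin mice at 4 weeks. Over all genes 54.9%, 56.2%, 55.2% and 58% were called in these comparisons, so the share among the 5 genes is near that of any gene. By direction, 29.1%, 29.5%, 29.5% and 28.6% of all genes were called higher in the PFC and 25.8%, 26.8%, 25.7% and 29.4% lower, and 59.2%, 60.3%, 59.6% and 61.8% had an unadjusted p under 0.05.

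Hdc, which encodes the enzyme that makes histamine, had between 27.4 and 82.7 CPM in the hypothalamus (median 46.1) and between 0.322 and 3.36 in the PFC (median 0.905), where its raw counts were between 4 and 83 per library (median 16). No PFC library came near a hypothalamic one. The log2 difference of Hdc (PFC minus hypothalamus) was -5.73 (SE 0.267) in vehicle mice and -5.74 (SE 0.268) in psilocybin mice at 3 h, and -5.79 (SE 0.264) and -5.14 (SE 0.264) at 4 weeks. These are 53.0-fold, 53.3-fold, 55.3-fold and 35.3-fold lower levels, with adjusted p of 9.73e-27, 9.06e-27, 3.43e-27 and 8.43e-25 in edgeR. Within mice, Hdc was lower in the PFC in 30 of 30 mice that kept both libraries. In bulk tissue, fewer cells that express a gene and less RNA per cell cannot be told apart.

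Hrh2, the Gs-coupled receptor, had between 7.03 and 13.4 CPM in the hypothalamus (median 10.7) and between 12.4 and 22.0 in the PFC (median 17.0). The ranges met only where the lowest PFC libraries lay under the highest hypothalamic ones. It was higher in the PFC by 0.73 (log2, SE 0.0999) and 0.67 (SE 0.0956) in vehicle and psilocybin mice at 3 h, and by 0.60 (SE 0.0957) and 0.74 (SE 0.0995) at 4 weeks, or 1.51-fold to 1.66-fold, with edgeR adjusted p of 6.44e-09, 1.34e-08, 2.72e-07 and 4.55e-09. The PFC library was the higher one in 30 of 30 mice, by a median of 0.63 and a range of 0.03 to 1.24 on the log2 scale.

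Hrh1, the Gq-coupled receptor, had between 20.8 and 32 CPM in the hypothalamus (median 25.3) and between 16.3 and 37.8 in the PFC (median 21.0). It was lower in the PFC of psilocybin mice at 3 h, with a log2 difference of -0.35 (SE 0.0757, adjusted p = 8.21e-05 in edgeR). At 4 weeks it was also lower, with -0.26 (SE 0.0759, adjusted p = 0.00324 in edgeR) in vehicle mice and -0.29 (SE 0.0792, adjusted p = 0.0014 in edgeR) in psilocybin mice. In vehicle mice at 3 h the fitted log2 difference was 0.11 (a description, since this group chose the gene), and within mice Hrh1 was higher in the PFC in 3 of 7 and lower in 4 of 7, with a median log2 difference of -0.05. With a Bonferroni threshold in place of the Benjamini-Hochberg adjustment, all 3 calls of Hrh1 were lost, with adjusted p of 0.479, 1 and 1 in edgeR. Outside that group Hrh1 was lower in the PFC in 22 of 23 mice.

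**Figure D2:**
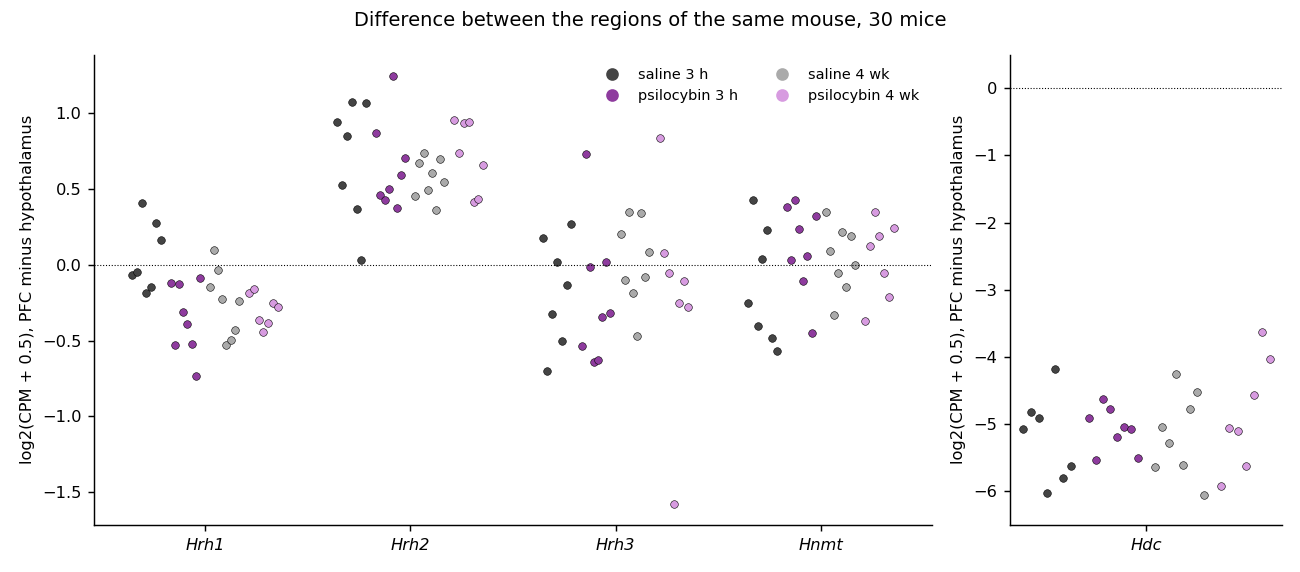
Difference in log2(CPM + 0.5) between the PFC and the hypothalamus of the same mouse, for 30 mice and each gene, coloured by treatment and time. All 30 points lie above 0 for Hrh2 and below 0 for Hdc (own axis), while Hrh3 and Hnmt spread around 0.

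Hrh3 and Hnmt differed less between the regions than among libraries. Hrh3 had between 36 and 105 CPM in the hypothalamus (median 59.9) and between 35 and 79.4 in the PFC (median 59.2). The log2 differences between regions were -0.11, -0.21, 0.03 and -0.22 for Hrh3 (vehicle and psilocybin at 3 h, then at 4 weeks), with 95% intervals from -0.52 to 0.33 over the 4 comparisons. For Hnmt they were -0.07, 0.12, 0.05 and 0.07 with intervals from -0.30 to 0.34. The study's limma procedure, run on the same 62 libraries, called both genes in psilocybin mice at 3 h, where it called 66.2% of all genes. Without psilocybin replicate 5 of the hypothalamus, the log2 difference at 4 weeks in psilocybin mice was -0.07 for Hrh3, -0.28 for Hrh1, 0.68 for Hrh2, -5.05 for Hdc and 0.08 for Hnmt, with the same 3 genes called.

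Of 7 genes that store and clear amines, 6 were called lower in the PFC in each of 3 comparisons and 7 in psilocybin mice at 4 weeks, and none was called higher, where 25.8%, 26.8%, 25.7% and 29.4% of all genes were called lower. The median log2 differences were -0.98, -0.89, -1.04 and -0.95 against 0.03, 0.02, 0.04 and 0.00 over all genes tested. Slc18a2, the vesicular monoamine transporter, fell from a median of 70.9 CPM in the hypothalamus to 5.57 in the PFC, a log2 difference of -4.03 (SE 0.259, adjusted p = 2.66e-20 in edgeR) in vehicle mice at 3 h. Slc29a4, a low-affinity amine transporter, had medians of 23.2 and 6.26, Maoa (monoamine oxidase A) 76.4 and 41.5, and Maob (monoamine oxidase B) 74.7 and 42.7. Aoc1, diamine oxidase, had a median of 0.362 in the hypothalamus and a count of 0 in 27 of 31 PFC libraries. Aldh2, an aldehyde dehydrogenase, was close in both, with medians of 94.9 and 91 CPM. Dopamine, noradrenaline and serotonin neurons use several of these genes too.

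Of the genes downstream of the receptors, 16 of the Gq pathway, 16 of the Gs and cyclic AMP pathway and 17 of the Gi pathway were tested. Their counts stand against 28.6% to 29.5% of all genes called higher and 25.7% to 29.4% called lower in the PFC. The count of Gs genes called higher is near that share, and the counts of Gq and Gi genes called lower are under it. Between 10 and 11 Gq genes were higher and 3 lower in the PFC, with median log2 differences of 1.00, 0.78, 0.91 and 1.00. Dgkz (a diacylglycerol kinase) was higher in the PFC by 2.49 to 2.68 on the log2 scale, Prkcb (a protein kinase C) by 2.06 to 2.14 and Itpr1 (an inositol trisphosphate receptor) by 2.37 to 2.50. Of the Gs genes 4 to 5 were higher and 5 to 7 lower, with Gnas (the Gs alpha subunit) at -1.95 to -1.63 and Adcy1 (an adenylyl cyclase) higher by 2.45 to 2.79. Of the Gi genes 8 to 9 were higher and 1 to 3 lower, among them Rgs7 (a regulator of G protein signalling), higher by 0.83 to 0.96, and Kcnj3 (a G protein-gated potassium channel), higher by 1.14 to 1.53. Other amine and acetylcholine receptors were divided, 10 to 11 of 22 higher and 8 to 10 lower, with Chrm1 higher by 3.28 to 3.77 and Htr7 at -1.85 to -1.61.

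Markers of the cell types in each dissection differed between the regions beside these genes, and their part in the receptor differences was not tested. Lower in the PFC were all 9 posterior hypothalamus genes, 7 to 8 of 9 tuberomammillary genes, 10 of 11 hypothalamic genes (1 higher), 6 of 6 thalamic genes, 8 of 8 oligodendrocyte genes and 4 to 5 of 6 choroid plexus genes (0 to 1 higher). Higher were 9 to 10 of 11 cortical excitatory genes (1 lower), 7 to 9 of 9 microglial genes, 3 to 8 of 8 endothelial genes, 8 to 10 of 10 mural and meningeal genes and 6 to 10 of 12 activity genes (0 to 1 lower). The interneuron genes (3 to 4 of 7 higher, 2 lower), striatal genes (1 to 3 of 9 higher, 2 to 3 lower) and astrocyte genes (2 to 3 of 9 higher, 2 to 5 lower) were divided, with several counts near the 28.6% to 29.5% higher and 25.7% to 29.4% lower among all genes. Of 10 mast cell genes 2, Kit and Hpgds, passed the filter, and both were higher. The other 8, too low to be tested, summed to a median of 0.656 CPM in the hypothalamus and 0.452 in the PFC.

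The spread of Hdc within the hypothalamus was 3.02-fold from the lowest to the highest library and that of Hrh3 2.92-fold, and without psilocybin replicate 5, the highest library for both, they were 2.86-fold and 2.19-fold. Pool B held more (36.7 to 82.7 CPM, median 54.4) than pool A (27.4 to 67.3, median 39.2), with overlap. By Pearson correlation of log2(CPM + 0.5) over the 31 hypothalamic libraries, the genes most like Hdc were Traf1 (r = 0.93), Prph (0.92), 2410004P03Rik (0.91), Nnat (0.91) and Pbxip1 (0.91). Prph encodes peripherin, a neuronal intermediate filament that was on the list of tuberomammillary genes. Its correlation with Hdc was 0.91 in pool A (n = 15), 0.91 in pool B (n = 16) and 0.95 without psilocybin replicate 5. Slc18a2 followed Hdc less, with r = 0.30 over the same libraries. The summed tuberomammillary list had r = -0.20, a sum made up mostly of Gad1 (median 413 CPM in the hypothalamus, against 10.2 for Prph), which other inhibitory neurons also express. These values are descriptions across libraries that share pools and dissection, and what the correlations rest on was not tested. Summed genes of the posterior hypothalamus (Foxb1, Lmx1a and 7 others) lay between 25 and 51.6 CPM, and their r with Hdc was 0.30.

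**Figure D3:**
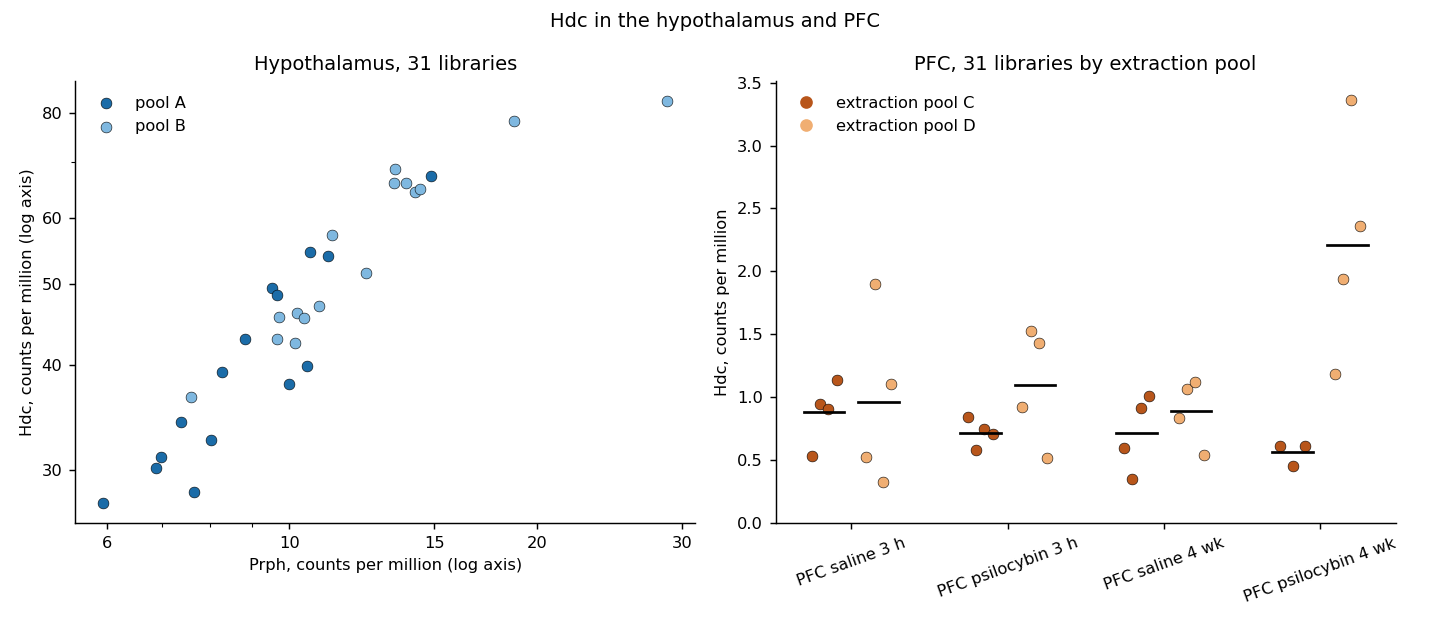
Left, Hdc against Prph in CPM (both axes log) in 31 hypothalamic libraries, coloured by extraction pool. Right, Hdc in 31 PFC libraries by group and pool with the mean of each as a line, where the 4 psilocybin libraries of pool D at 4 weeks lie between 1.18 and 3.36.

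The second comparison, psilocybin against vehicle, addressed the acute and the lasting transcriptional response to the drug. None of the 5 genes was called in any test of psilocybin against vehicle, and the 1 sizeable difference outside Hrh1 was that of Hdc in the PFC at 4 weeks, which did not pass. By edgeR's quasi-likelihood test 0 of 4 tested genes were called in the PFC at 3 h (0.0105% of all genes, 0.00527% in each direction), 0 of 5 in the PFC at 4 weeks (0%), 0 of 5 in the hypothalamus at 3 h (0%) and 0 of 5 in the hypothalamus at 4 weeks (0%). At an unadjusted p under 0.05 the share of all genes was 7.23%, 2.4%, 1.78% and 9.61%, and among these 19 values it was reached by Hdc in the PFC at 4 weeks alone. DESeq2 called none of them, nor did the study's limma procedure run on the same 62 libraries, which called 6.49% of all genes in the PFC at 3 h and 0% in the others.

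Hrh1 in the PFC at 3 h is the value that chose the set, and it is given as a description. Vehicle mice had between 22.9 and 37.8 CPM (median 30.5) and psilocybin mice between 16.4 and 26.6 (median 20.6). The groups overlapped, with the lowest vehicle libraries inside the psilocybin range. The fitted log2 difference was -0.49, or 1.41-fold lower after psilocybin. As a difference of mean log2(CPM + 0.5), the scale of all values within pools, it was -0.50 within pool C, where the ranges were 25.6 to 37.8 and 18.6 to 26.6, and -0.47 within pool D, where 22.9 to 31.5 and 16.4 to 22.4 did not overlap. How many of all genes separate within a pool was not counted.

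Over the 8 groups, mean Hrh1 was 29.8 ± 5.30 CPM (SD, n = 8) in the PFC of vehicle mice at 3 h, the group that chose the gene, followed by 27.5 ± 2.35 (n = 7) and 26.8 ± 2.33 (n = 8) in the hypothalamus of vehicle and psilocybin mice at 3 h. Next came 24.1 ± 2.05 (n = 8) and 23.2 ± 1.09 (n = 8) in the hypothalamus at 4 weeks, then 21.1 ± 3.42 (n = 8) in the PFC of psilocybin mice at 3 h and 20.3 ± 2.63 (n = 8) and 18.8 ± 1.13 (n = 7) in the PFC of vehicle and psilocybin mice at 4 weeks. Neighbours in this order lay within the larger SD of the pair, except 26.8 and 24.1, and the steps from 23.2 to 21.1 and from 20.3 to 18.8 exceeded the smaller SD of their pair. Hrh1 in the PFC of psilocybin mice at 3 h lay near the PFC groups at 4 weeks. The log2 difference after psilocybin was -0.09 (95% interval -0.25 to 0.07) in the PFC at 4 weeks, and in the hypothalamus -0.04 (-0.20 to 0.12) at 3 h and -0.06 (-0.21 to 0.09) at 4 weeks, the latter -0.07 without psilocybin replicate 5.

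**Figure D4:**
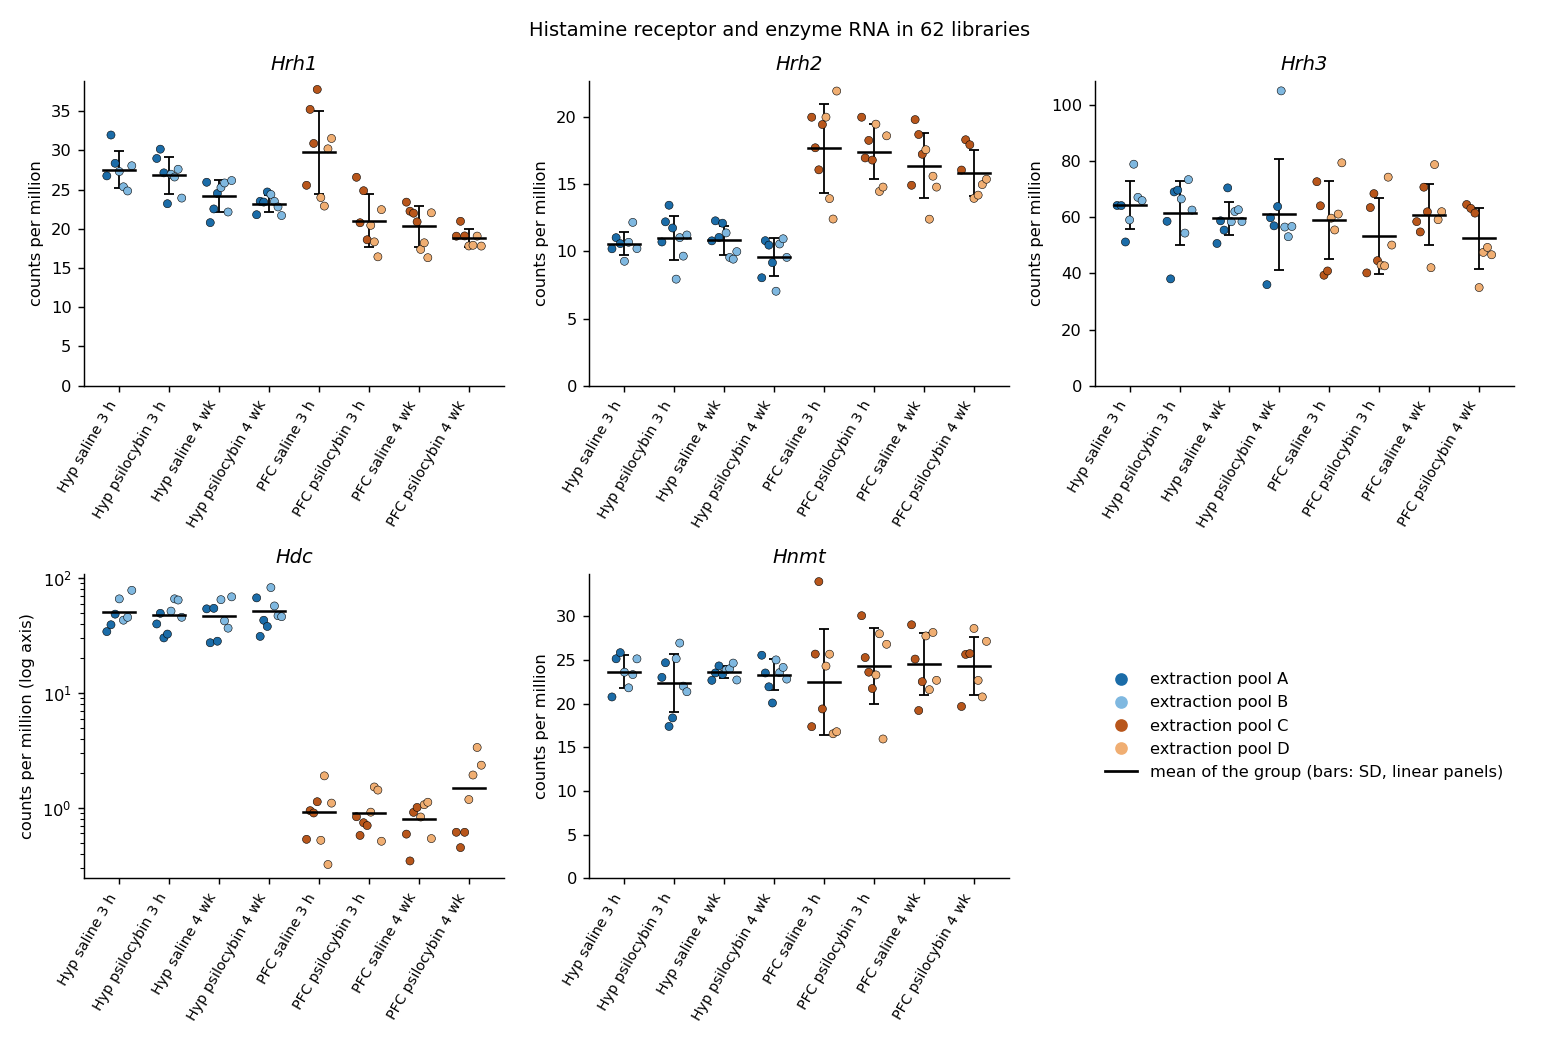
CPM of the 5 genes in each of the 62 libraries by group, coloured by extraction pool, with the group mean as a line and SD as bars (Hdc on a log axis without bars). Hrh1 is highest on average in the PFC vehicle group at 3 h (29.8), and Hrh3 has 1 high library, at 105, in the hypothalamus of psilocybin mice at 4 weeks.

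Over the 31 PFC libraries the genes most like Hrh1 were Hspa8 (r = 0.86), Ak4 (0.84), Hspa5 (0.81), Snw1 (0.80) and Pdia6 (0.79). Hspa8 encodes a cytosolic chaperone, Hspa5 and Pdia6 encode proteins that fold other proteins in the endoplasmic reticulum, Ak4 a mitochondrial adenylate kinase and Snw1 a splicing factor. Median Hspa8 was 1260 CPM in vehicle and 1105 in psilocybin mice at 3 h, and 1063 and 994 at 4 weeks. Its correlation with Hrh1 was 0.87 in pool C (n = 15), 0.80 in pool D (n = 16) and 0.82 without the vehicle libraries at 3 h (n = 23). Without those libraries, which chose Hrh1, the other 4 were lower, with 0.60 for Ak4, 0.61 for Hspa5, 0.50 for Snw1 and 0.42 for Pdia6. Over the 15 libraries at 4 weeks Hspa8 had 0.79, Ak4 0.42, Hspa5 0.44, Snw1 0.28 and Pdia6 -0.03. The summed activity genes (Fos, Arc and 10 others) had r = 0.62 with Hrh1 over the 31 libraries, 0.47 without the vehicle libraries at 3 h (n = 23), 0.42 at 3 h (n = 16) and 0.29 at 4 weeks (n = 15). In the hypothalamus other genes led, Tmem28 (0.76), E2f6 (0.75), Rrad (0.73), Nudt11 (0.71) and Rabif (0.71), with 0.19 to 0.52 at 4 weeks (n = 16). All are descriptions, and where no pool or single time is named the correlations are across libraries of both pools and both times.

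Hrh2 and Hrh3 had small differences after psilocybin. For Hrh2 the log2 differences were -0.02 (95% interval -0.21 to 0.17) and -0.04 (-0.23 to 0.16) in the PFC at 3 h and 4 weeks, and 0.04 (-0.16 to 0.24) and -0.18 (-0.37 to 0.02) in the hypothalamus, the last -0.12 without psilocybin replicate 5, the lowest Hrh2 library of its group (7.03 CPM). For Hrh3 they were -0.15 (-0.45 to 0.14), -0.22 (-0.52 to 0.09), -0.05 (-0.35 to 0.25) and 0.03 (-0.26 to 0.32) in the same order. The last of these was -0.11 without psilocybin replicate 5, the library with 105 CPM of Hrh3 against 36 to 63.9 in the rest of its group.

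Hnmt, which clears histamine, stayed between 16.0 and 34.0 CPM in all PFC libraries and between 17.4 and 26.9 in all hypothalamic ones. Its log2 differences after psilocybin were 0.12 (95% interval -0.10 to 0.34) and 0.00 (-0.22 to 0.22) in the PFC at 3 h and 4 weeks, and -0.08 (-0.30 to 0.15) and -0.02 (-0.24 to 0.20) in the hypothalamus, the last -0.03 without psilocybin replicate 5. A change of Hnmt beyond 0.34 in either direction lies outside all 4 intervals.

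Hdc in the hypothalamus, where it is made, differed between psilocybin and vehicle by -0.07 (95% interval -0.46 to 0.32) at 3 h and 0.13 (-0.26 to 0.51) at 4 weeks on the log2 scale, the latter 0.04 without psilocybin replicate 5. Vehicle libraries lay between 34.2 and 78.2 CPM at 3 h (median 45.5) and psilocybin libraries between 30.2 and 66.0 (median 47.5). At 4 weeks the ranges were 27.4 to 68.7 (median 48.2) and 31.1 to 82.7 (median 46.6). The groups overlapped over most of their range at each time.

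In the PFC at 4 weeks Hdc had between 0.346 and 1.12 CPM in vehicle mice (median 0.875) and between 0.452 and 3.36 in psilocybin mice (median 1.18). The log2 difference was 0.77 (SE 0.321, 95% interval 0.13 to 1.42, unadjusted p = 0.0194 and adjusted p = 1 in edgeR), and it ranged from 0.50 to 0.96 over the alternatives, single libraries left out included. The groups separated in pool D only, where the 4 psilocybin libraries had 1.18, 1.94, 3.36 and 2.36 and the 4 vehicle libraries between 0.542 and 1.12, without overlap. In pool C the psilocybin libraries had between 0.452 and 0.615 and the vehicle libraries between 0.346 and 1.01. The raw counts behind the psilocybin libraries of pool D were between 24 and 83, and those behind its vehicle libraries between 11 and 18. As a difference of mean log2(CPM + 0.5), psilocybin minus vehicle was 0.92 in pool D and -0.17 in pool C. How many of all genes separate in this way within a pool was not counted.

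Markers of other cells that make Hdc were measured in the same libraries. Summed defining mast cell genes (Cpa3, Tpsb2, Tpsab1, Cma1, Mcpt4, Fcer1a, Ms4a2 and Mrgprb2) lay between 0.0810 and 0.645 CPM in the 4 psilocybin libraries of pool D and between 0.167 and 0.890 in the 4 vehicle libraries. Over all PFC libraries these 8 genes summed to between 0 and 2.86, and none of the 8 passed the filter. Fcer1a was at 0 in 30 of 31 PFC libraries, Mrgprb2 in 29, Ms4a2 in 28 and Tpsab1 in 25. The others were counted in more libraries, with Cma1 at 0 in 14, Cpa3 in 13, Mcpt4 in 11 and Tpsb2 in 9. The posterior hypothalamus genes summed to between 0.648 and 1.97 in the psilocybin libraries of pool D, 0.750 to 1.31 in the vehicle libraries of that pool and 25 to 51.6 in the hypothalamus. Prph lay between 0.323 and 1.27 against 0.306 and 1.48. The part of such cells in the Hdc values was not tested.

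None of the genes of amine handling, of the Gq, Gs and Gi pathways or among the other amine receptors was called after psilocybin, in any of the 4 comparisons. The median log2 differences of the 7 amine handling genes were 0.02, -0.07, -0.01 and -0.02 (PFC at 3 h and 4 weeks, hypothalamus at 3 h and 4 weeks), against -0.01, -0.01, -0.00 and 0.01 for all genes. For the 16 Gq genes they were -0.03, -0.01, -0.02 and -0.08, for the 16 Gs genes -0.04, -0.03, -0.04 and -0.03, for the 17 Gi genes -0.02, -0.02, -0.00 and -0.06, and for the 22 receptors -0.02, -0.06, -0.14 and -0.02. None of the marker or activity genes was called either.

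**Figure D5:**
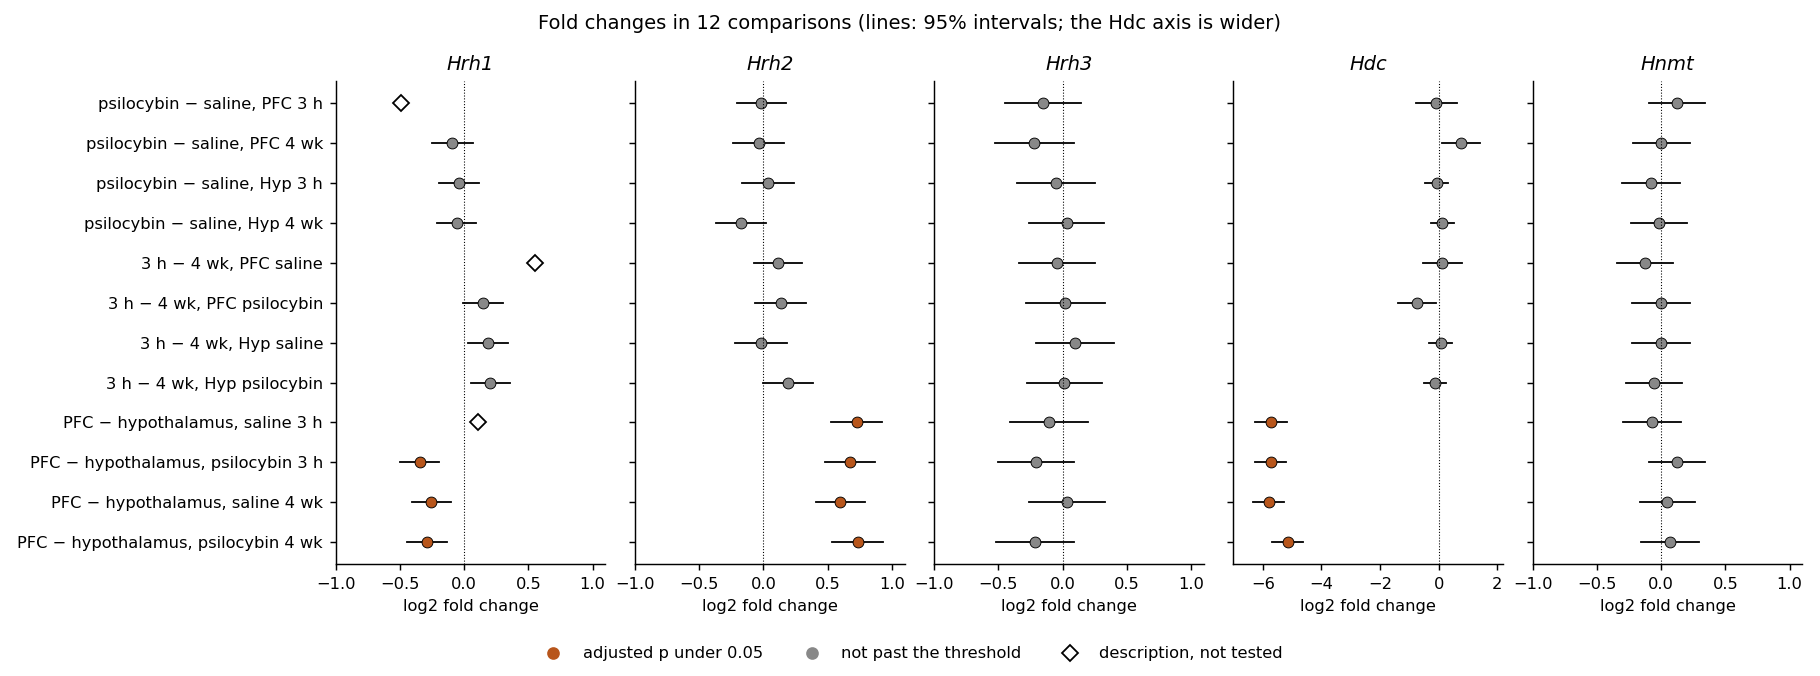
Log2 fold changes of the 5 genes in 12 comparisons with 95% intervals, filled in orange where called at an adjusted p under 0.05, and as open diamonds where the value is a description without a test. The 11 called values are all differences between regions, for Hrh1, Hrh2 and Hdc (wider axis).

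The third comparison set 3 h against 4 weeks after the injection. No tested member was called, 0 of 4 in the PFC of vehicle mice (4.72% of all genes were called), 0 of 5 in the PFC of psilocybin mice (5.96%), 0 of 5 in the hypothalamus of vehicle mice (0.685%) and 0 of 5 in the hypothalamus of psilocybin mice (1.16%). At an unadjusted p under 0.05 the share of all genes was 18%, 20.4%, 8.09% and 17.4%, and 3 of these 19 values reached it. Called genes that were higher at 3 h made up 2.39%, 2.7%, 0.522% and 0.743% of all genes, and called genes that were lower 2.34%, 3.26%, 0.163% and 0.416%.

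Of those, Hrh1 gave 2, as it was higher at 3 h in the hypothalamus by 0.19 (log2, SE 0.0779, unadjusted p = 0.02, adjusted p = 0.452 in edgeR) in vehicle mice and by 0.20 (SE 0.0756, unadjusted p = 0.00902, adjusted p = 0.155 in edgeR) in psilocybin mice, the latter 0.22 (adjusted p = 0.23 in edgeR) without psilocybin replicate 5. The vehicle libraries lay between 24.8 and 32 CPM at 3 h and between 20.8 and 26.2 at 4 weeks, and the psilocybin libraries between 23.2 and 30.2 and between 21.7 and 24.7, so the times overlapped in each. The difference was 0.30 in pool A and 0.09 in pool B for vehicle mice, and 0.22 and 0.18 for psilocybin mice. In the PFC of psilocybin mice it was 0.15 (SE 0.0791, adjusted p = 0.283 in edgeR), 0.19 in pool C and 0.09 in pool D. The study's limma procedure called the PFC value of psilocybin mice, where it called 19.1% of all genes, and the hypothalamic value of vehicle mice, where it called 7.25%.

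In the PFC of vehicle mice, which is a description, Hrh1 was higher at 3 h by 0.55 on the log2 scale, 1.46-fold. The vehicle libraries lay between 22.9 and 37.8 CPM at 3 h and between 16.3 and 23.4 at 4 weeks. Within pools the times did not overlap, with 25.6 to 37.8 against 20.9 to 23.4 in pool C and 22.9 to 31.5 against 16.3 to 22.0 in pool D. The libraries at 3 h are those that chose Hrh1, and how many of all genes separate within pools was not counted. The vehicle group at 3 h is shared by this difference and that between treatments at 3 h.

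Hdc gave the other value with an unadjusted p under 0.05. In the PFC of psilocybin mice the log2 difference (3 h minus 4 weeks) was -0.73 (SE 0.325, unadjusted p = 0.0294, adjusted p = 0.185 in edgeR), with the same 4-week psilocybin libraries in it. In pool D the psilocybin libraries lay between 0.514 and 1.52 CPM at 3 h and between 1.18 and 3.36 at 4 weeks, and in pool C between 0.577 and 0.839 and between 0.452 and 0.615. Hrh2 in the hypothalamus of psilocybin mice was higher at 3 h by 0.19 (95% interval -0.00 to 0.39) with psilocybin replicate 5 and by 0.14 without it. The intervals of Hrh3 spanned -0.34 to 0.40 and those of Hnmt -0.34 to 0.22 over the 4 comparisons. In the hypothalamus of psilocybin mice the log2 differences between times were 0.01 for Hrh3, -0.13 for Hdc and -0.06 for Hnmt, and 0.16, -0.04 and -0.05 without psilocybin replicate 5.

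Activity genes stood beside these differences in time. They were called higher at 3 h in 8 of 12 in the PFC of vehicle mice and 9 of 12 in psilocybin mice, with median log2 differences of 0.90 and 1.01 against -0.00 and 0.01 for all genes, and in 1 of 12 (Fosb) in each hypothalamic comparison. Their sum lay between 387 and 1102 CPM in the PFC of vehicle mice at 3 h, 373 and 959 in psilocybin mice at 3 h, 196 and 744 in vehicle mice at 4 weeks and 215 and 391 in psilocybin mice at 4 weeks. Their part in the level of Hrh1 was not tested. Of the receptor pathways, the called genes were Gna11 (a Gq family alpha subunit), higher at 3 h by 0.20 in vehicle and 0.18 in psilocybin mice of the PFC, and Rgs2 (0.27), Adcy8 (-0.41), Slc29a4 (0.53) and Adrb1 (0.31) in psilocybin mice. Adra2a, an adrenergic receptor that couples to Gi, was higher at 3 h by 0.55 and 0.71 in the PFC of vehicle and psilocybin mice. None of these pathway genes was called in the hypothalamus. Marker genes called between times numbered at most 2 in any list of a comparison. In the PFC of vehicle mice 2 of 11 hypothalamic genes were lower at 3 h, against 2.34% of all genes. In the PFC of psilocybin mice 2 of 9 astrocyte genes were higher, against 2.7% of all genes.

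The last tests asked whether an effect differed between times, regions or treatments. The interaction of treatment and time was called for none of the tested genes in the PFC (0 of 4) or hypothalamus (0 of 5), nor was that of treatment and region at 3 h (0 of 4) or 4 weeks (0 of 5), and 0% of all genes were called in each. That of time and region was called for 0 of 4 in vehicle mice (0.0369% of all genes) and 0 of 5 in psilocybin mice (0.116%). For Hdc in the PFC, the difference between the effects of psilocybin at 3 h and 4 weeks was -0.85 on the log2 scale (95% interval -1.80 to 0.09, unadjusted p = 0.0756, adjusted p = 1 in edgeR). For Hrh1, as a description, the effect of psilocybin in the PFC at 3 h minus that at 4 weeks was -0.40, and that in the PFC minus that in the hypothalamus at 3 h was -0.45.

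In the PFC Hrh3 had r = 0.73 with the summed cortical excitatory genes and -0.66 with the astrocyte genes (n = 31), and among the genes most like it were Rap1gap (0.88), Ankrd13b (0.85), Rai1 (0.85) and Ocel1 (0.85). In the hypothalamus Cyp46a1 (0.89), Ncdn (0.88), Fam20c (0.87) and Lrrn2 (0.87) were among those most like it, with 0.84, 0.86, 0.83 and 0.82 without psilocybin replicate 5. Hnmt was most like Rrm2b (0.91), Fam92a (0.90), Gtf2a2 (0.90), Cmpk1 (0.90) and Arxes2 (0.90) in the PFC, and Zfp869 (0.81), Zfp934 (0.77), Ccdc90b (0.73), Ttc30b (0.70) and Hnrnpc (0.70) in the hypothalamus. Hrh2, compared in the PFC where its mean was higher, had Rabgef1 (0.71), Dyrk2 (0.69) and Numb (0.69) among the genes most like it. Within pool C these were 0.32, -0.08 and 0.35 (n = 15), and within pool D 0.68, 0.77 and 0.66 (n = 16). Hrh2 also had r = 0.64 with the summed activity genes, 0.43 in pool C and 0.72 in pool D. These too are descriptions, over libraries of both pools and both times unless a pool is named.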

How the data were processed

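Polyadenylated RNA of 64 samples was sequenced (TruSeq Stranded mRNA, paired-end). Per the study's methods, the authors made reads with bcl2fastq 2.20.0, aligned them to GRCm38 with STAR 2.7.2b and counted them on the GENCODE vM25 gene model with featureCounts 1.6.2. The deposited table holds raw counts per gene, neither normalized nor pooled.

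Groups, cages and extraction pools came from the labels. Libraries with at least 1000000 counts were kept (62), since precision follows depth (median 18287978.5 counts). Symbols were found for 55141 of 55401 identifiers. Low genes were removed by filterByExpr, which took the groups and a minimum count of 10. TMM normalization and a robust quasi-likelihood fit of group and extraction pool in edgeR 4.0.16 (R 4.3.3) used all groups. Intervals are 95%. CPM uses TMM library sizes, FPKM the gene length in the table, and correlations log2(CPM + 0.5). The study's methods also exclude a sample for immune and wound healing genes, which they do not name, and no library was left out on that ground here except in alternatives. Alternatives used limma 3.58.1, DESeq2 1.42.0 and other filters, covariates and libraries. The exact permutation test set for members called between treatments or times had no member to apply to. In counts simulated for psilocybin against vehicle in the PFC at 3 h, 55 of 100 genes changed by 0.5 (log2) and 89 of 100 changed by 1 were recovered, with 5 false calls among 18856 genes. All changed genes had a mean over 1 CPM. With so many changed at once the adjusted threshold was looser than in the data, where 2 genes were called. The shares recovered are therefore not those of the real test.

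The 5 genes, the 20 gene lists (5 of pathways, 15 of markers and activity genes) and the tests were chosen with earlier results of these data known. Named besides the 5 genes are called pathway members (at most the 4 with the smallest p), the 5 genes most like each member (some are not reported here), and markers on which a result turns. The 2 regions of a mouse were matched by treatment, time and cage number. Correlations of deviations between mice of the same cage ran from -0.29 to 0.54 over the comparisons of treatments and times, so not each pair was over 0.1. The upstream sequences are RefSeq's for GRCm38.p6.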

Additional observations from a re-analysis of the deposited data

Results flagged for a closer look

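Each of 40 sets (5 genes in 8 groups of 7 or 8 libraries) was examined for a library far from the rest by Dixon's test, which flags about 1 set in 20 by chance, and 2 sets stood out. Hrh3 in psilocybin replicate 5 of the hypothalamus at 4 weeks had 105 CPM, against 63.9 in the next highest library. Hrh1 in psilocybin replicate 2 of the PFC at 4 weeks had 21.0 CPM, against 19.1 in the next highest library, in a group that spanned only 17.8 to 21.0.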

How the results depend on the processing

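Over 13 alternatives besides leaving out single libraries, no called value changed direction. The study's procedure (limma with quality weights and the mouse as a block) called 1 gene between times in the PFC of psilocybin mice (Hrh1, adjusted p = 0.0455, with 19.1% of all genes called), 1 in the hypothalamus of vehicle mice (Hrh1, adjusted p = 0.0346, with 7.25%), and 5 between regions in psilocybin mice at 3 h (with 66.2%), adding Hrh3 (adjusted p = 0.0133) and Hnmt (adjusted p = 0.0225). It gave -0.41 for Hrh1 after psilocybin in the PFC at 3 h, which is a description. Run without psilocybin replicate 5 of the hypothalamus at 4 weeks, an alternative chosen after seeing the data, it again called 1, 1 and 5 genes and gave -0.42. The cause was not tested. At least 10 counts in every library left 1 gene called between regions in vehicle mice at 3 h, since Hdc did not pass that filter and could not be tested. With the Bonferroni threshold the Hrh1 differences between regions (-0.35, -0.26 and -0.29) had adjusted p of 0.479, 1 and 1 and were no longer called.

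With the cage as a replicate block, in place of the extraction pool, 0 genes were called between treatments or times. Hrh1 after psilocybin in the PFC at 3 h, as a description, was -0.49. The block changed no count. The mouse as a block between regions, chosen after seeing the data, changed none either.

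With each library left out in turn (62 fits), the number of genes called was 0 for each treatment and time comparison and 2, 3, 3 and 3 between regions. Hdc ranged from -5.96 to -5.01, Hrh2 from 0.57 to 0.78, and Hrh1 from -0.39 to -0.23 in its tested differences between regions. Hrh1 after psilocybin in the PFC at 3 h, a description of the value that chose the set, ranged from -0.54 to -0.45. Of 46 values not called, 19 changed sign in at least 1 alternative, and 4 were called in at least 1, all by the study's procedure. Counts of Hdc in the PFC (median 16) limit what could be detected there.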

Other observations

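The 2 libraries left out for depth held few reads of these genes. Vehicle replicate 2 of the hypothalamus at 3 h had 7 counts of Hrh1, 5 of Hrh2, 21 of Hrh3, 4 of Hdc and 3 of Hnmt among 211111. Psilocybin replicate 3 of the PFC at 4 weeks had 1 count of Hrh1, 1 of Hdc and 0 of the other 3 genes among 200066. These counts cover counting error only and enter no comparison except in the alternative that kept all 64 libraries.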
